A study of Mus musculus with 4 samples.

Results

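Circular RNAs from genes that encode no protein made up 433 of the 40909 circRNAs in the series table. A circRNA was a member when its locus lay inside at least 1 RefSeq gene, with 1 bp of tolerance, and inside no protein-coding gene. The rule used positions only and no read count. Of the other circRNAs, 39237 lay in protein-coding genes and 1239 in no gene. The 433 members came from 185 hosts, where a host is the noncoding gene, or the joined names of overlapping noncoding genes, that holds the circle. A single circle came from 129 hosts, 2 to 4 circles from 42, and at least 5 from 14.

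The study measured back-splice junction reads in primary mouse articular chondrocytes, the cells of joint cartilage, in 2 libraries with interleukin-1β (IL-1β) and 2 control libraries. Treated cells, at passage 1 to 3 after thawing, received 10 ng/ml of recombinant human IL-1β for 24 h, an inflammatory stimulus used as a culture model of osteoarthritis. Control libraries were told apart by their source label, since their protocol text carries the same treatment. Library titles differ as well, with N for control and OA for IL-1β. The RNA of all 4 libraries was depleted of ribosomal RNA and digested with RNase R, an exonuclease that degrades linear RNA. The labels give no mouse strain, age or animal and do not say whether the libraries came from separate cultures, so p-values measure only the spread between libraries, which may be technical.

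A circRNA forms when the splicing machinery joins a donor, the end of an exon, back to an acceptor at the start of the same or an earlier exon. The product has no free ends, resists exonucleases and is counted by reads across that back-splice junction. Long noncoding RNAs (lncRNAs) are spliced like messenger RNAs and can therefore yield circles, and some carry miRNA hairpins. A processed pseudogene is an intronless copy of a messenger RNA, so a junction placed inside one can also match its parent gene.

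Splice letters could be read where a circle's end fell in a RefSeq promoter window or miRNA hairpin (build GRCm38.p6, the same assembly as mm10). Among members, AG stood directly before 10 of 11 acceptors read, and GT directly after the 1 donor read. Over all circRNAs the shares were 96.8% of 251 acceptors and 97.4% of 78 donors. The donor is in Mir100, a miRNA hairpin of the lncRNA Mir100hg (chr9:41531425-41531504, + strand). It is the last base before the capitals, which mark the letters that follow it, at base 64 of 80. The mature miR-100-3p (chr9:41531471-41531492) and miR-100-5p (chr9:41531437-41531458) are shown with seeds, bases 2 to 8, in capitals. All these sequences are from RefSeq.
Mir100 hairpin: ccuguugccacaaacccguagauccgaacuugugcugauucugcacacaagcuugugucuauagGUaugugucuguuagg
mmu-miR-100-3p: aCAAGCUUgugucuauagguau
mmu-miR-100-5p: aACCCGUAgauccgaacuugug

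The acceptors with letters included 3 of Gm32364 and 1 of 4933439C10Rik, both lncRNA genes with little described function. They are shown because they let the called junctions be read against the genome. Capitals mark the bases before each acceptor, and the 300-base window of Gm32364 (chr10:67582489-67582788, + strand) holds the acceptors of circRNA.1395 and circRNA.1396. The acceptor of Gm32364 circRNA.1389 is in chr10:67570183-67570212 (+ strand) and that of 4933439C10Rik in chr11:59506679-59506708 (+ strand). The 1 end without AG belonged to Rpph1, the RNA subunit of ribonuclease P, which trims transfer RNA precursors. Its letters are shown for the strand the circle was labelled with (chr14:50807680-50807709, - strand).
Gm32364 window: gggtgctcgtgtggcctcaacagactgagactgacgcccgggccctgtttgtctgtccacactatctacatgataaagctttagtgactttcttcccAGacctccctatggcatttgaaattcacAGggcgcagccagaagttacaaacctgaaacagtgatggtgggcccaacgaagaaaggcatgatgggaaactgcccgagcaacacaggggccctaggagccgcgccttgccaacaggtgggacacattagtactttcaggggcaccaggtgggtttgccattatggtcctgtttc
Gm32364 circRNA.1389 acceptor: cggctgatgtttcAGgcatcatgatgttcc
4933439C10Rik acceptor: cccaatcccttccAGccgcaattccatttc
Rpph1 end: gggaaggtctgagACttgggcctcccgcgg

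Libraries held 895774 and 980542 junction reads under IL-1β, against 1198010 and 1203855 in control. Circles of 3 of 11 chondrocyte marker genes were read (Sox5, Sox6 and Hapln1), with 243 and 317 reads under IL-1β against 481 and 277 in control, while circles of Col2a1, Acan and Sox9 were at 0. Circles of 4 of 5 fibroblast markers were read, at 65 to 80 reads under IL-1β against 167 to 241 in control, and those of 5 macrophage markers were at 0. Of 4 osteoblast markers only Runx2 had circles, with 336 and 360 reads under IL-1β against 320 and 511 in control. These 1527 reads exceeded the 1318 of the chondrocyte markers. Endothelial and muscle markers held 8 and 7 reads. Linear RNA was not analysed here, a gene can be expressed without making circles, and the part of these levels in the results was not tested. In bulk RNA, fewer cells of a type and less circular RNA per cell cannot be told apart.

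Noncoding genes gave a small part of the circular RNA of these cells. The members held 27831 junction reads, 0.651% of the total. Their share was 0.626% (95% Wilson interval 0.610 to 0.643) and 0.725% (0.708 to 0.742) in the IL-1β libraries. In control it was 0.635% (0.621 to 0.650) and 0.623% (0.609 to 0.637). The second IL-1β library was the highest, and the first lay between the controls. The means were 0.675% ± 0.0699 with IL-1β and 0.629% ± 0.00870 in control (SD, n = 2 each), a difference of 0.0462 percentage points that did not exceed the spread (exact two-sided permutation test, p = 0.667, where 0.333 is the smallest possible). Without the second IL-1β library the difference was -0.00327 points. Intervals cover counting error only. The libraries held 158 and 184 members under IL-1β, against 196 and 165 in control.

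A few lncRNAs and pseudogenes carried most of these reads. Lncpint, Pvt1 and Mir100hg together held 50.5% of them, adding Gm9762 brought the share to 62.3%, and the 10 leading hosts held 80.6%. By annotation, 390 circles in 149 hosts were from lncRNA genes and held 76.8% of member reads. The pseudogene class, 38 circles from 31 hosts, held 18.3%. Grouping by gene symbol overlaps with the lncRNA genes, so its shares do not add to the 76.8%. In that grouping, 131 circles of predicted genes held 13.0%. Circles from RIKEN clone genes numbered 71 with 2126 reads, and those named as antisense transcripts 14 with 208 reads. Levels of hosts and circles are given below as reads and as CPM, the counts per 1000000 junction reads after scaling by edgeR's TMM factors.

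**Figure D1:**
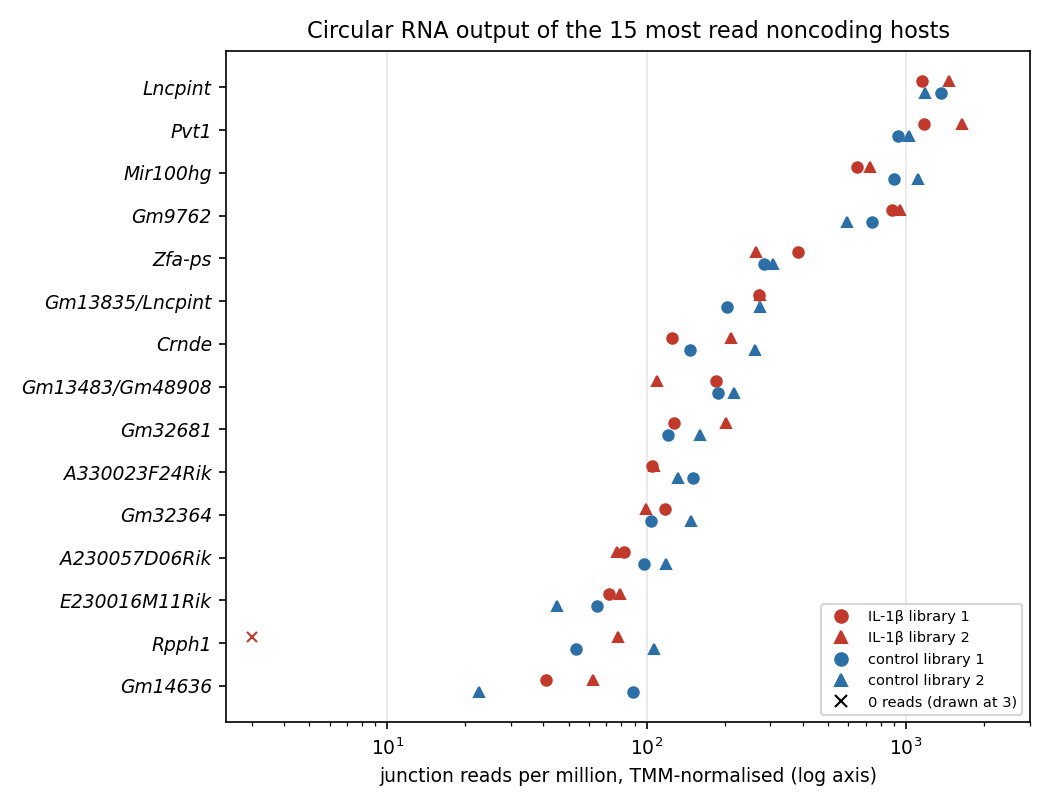
Circular RNA output of the 15 noncoding hosts with the most reads, as TMM-normalised CPM on a log axis, with 1 point per library (red IL-1β, blue control, circles library 1, triangles library 2; a cross marks 0 reads and is drawn at 3). Both IL-1β points lie right of both controls for Pvt1 and Gm9762 and left of them for Mir100hg, while those of Lncpint overlap.

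Member circles were less deeply read than coding ones, and most were read in 1 library. The median member had 9 reads over the 4 libraries against 13 for coding circRNAs. Of the members, 49 (11.3%) were read in every library, against 17.2% of coding circRNAs, and these 49 held 80.0% of member reads. Another 295 (68.1%) were read in a single library, against 57.8%. At like depth the shares were close: from 50 to under 200 reads, 63.2% of members and 62.4% of coding circRNAs were in every library, and with at least 200 reads 95.8% and 98.1%. Short loci were more common, with 75 members (17.3%) under 1 kb against 5.16% of coding circRNAs. Studied lncRNAs gave 28 of these short loci, out of their 125 circles, and pseudogenes 23, out of 38. Of the 28, Malat1 gave 12, Neat1 9, Pvt1 3 and Lncpint 2. These shares are descriptions without a test.

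Pvt1 yielded more different circles than any other noncoding host. It is a lncRNA gene beside the Myc oncogene (chr15:62037986-62260215), known as a source of a circular RNA. Its 53 circles used 24 acceptors and 23 donors. The acceptor at 62107148 served 17 circles with 67.3% of the gene's reads, and the donor at 62107465 served 8 circles with 54.0%. Joining these ends gives circRNA.10328 (chr15:62107148-62107465), a locus of 318 bases.

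Circular output of Pvt1 was 1065 and 1602 reads under IL-1β against 1105 and 1184 in control. It was 1407 ± 326 CPM under IL-1β against 979 ± 64.0 in control (SD, n = 2 each). On this scale both IL-1β libraries lay above both controls, while in unscaled reads the first IL-1β library was the lowest of the 4. The log2 change was 0.52 ± 0.22 (SE), a 1.44-fold higher level, and did not pass edgeR's quasi-likelihood test (unadjusted p = 0.0446, adjusted p = 0.887). CircRNA.10328 had 477 and 827 reads under IL-1β against 467 and 430 in control. Its groups did not overlap either, and the second IL-1β library was highest. In edgeR its log2 change was 0.87 ± 0.30, with an unadjusted p of 0.0265 and an adjusted p of 0.886. It made up 44.8% and 51.6% of Pvt1 reads under IL-1β, against 42.3% and 36.3% in control.

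The other Pvt1 circles varied in direction. CircRNA.10357 (chr15:62170758-62175926), the next most read, had 107 and 117 reads under IL-1β against 81 and 183 in control, so the controls lay on both sides. CircRNA.10323 had 46 and 74 reads under IL-1β against 51 and 25 in control. In CPM it was higher in both IL-1β libraries, with a log2 change of 0.98 ± 0.62. Its value ranged from 0.53, without the second control library, to 1.59, without the first. Of 25 Pvt1 circles with at least 20 reads, 17 were higher and 8 lower with IL-1β, with a median log2 change of 0.31, while 48.3% of all circRNAs tested were higher. They share ends and a transcript, so they are not separate measurements of the gene.

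**Figure D2:**
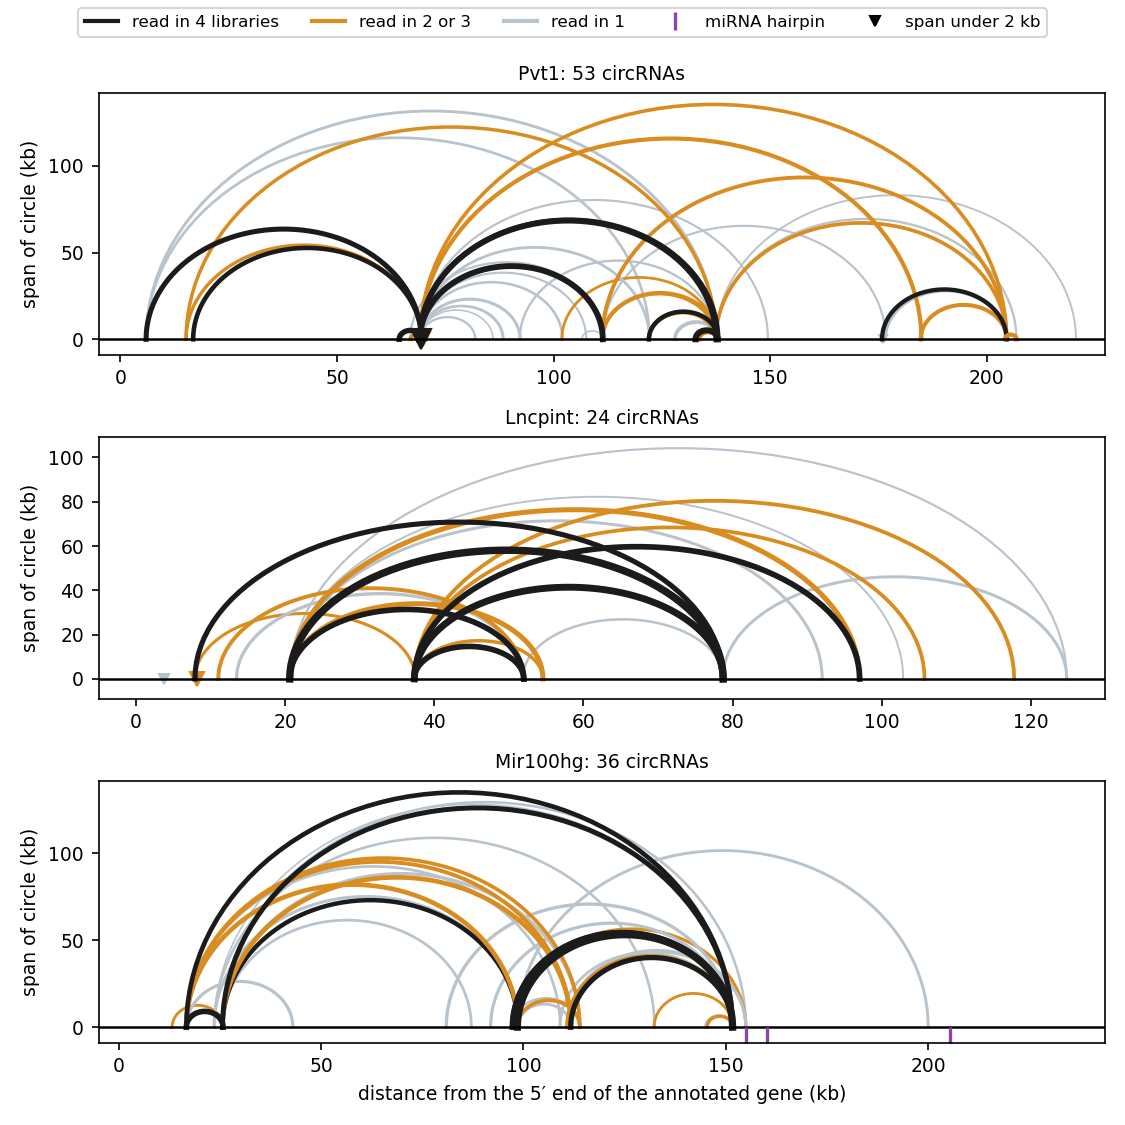
Circles of Pvt1, Lncpint and Mir100hg, each drawn as an arc from its 5′ end to its 3′ end, with distance from the 5′ end of the annotated gene on the horizontal axis and the span of the circle on the vertical axis, both in kb. Black arcs were read in 4 libraries, orange in 2 or 3 and grey in 1, thicker arcs had more reads, triangles stand for spans under 2 kb and purple marks for miRNA hairpins; many arcs meet at a few shared ends, such as the donor of 15 Mir100hg circles.

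Lncpint was the most read noncoding host, at levels that overlapped between the groups. It is a p53-induced lncRNA (chr6:31093563-31218474, - strand). Its 24 circles used 9 acceptors and 13 donors, and the donor at 31139729 served 5 circles with 74.8% of reads. The main acceptors were at 31197851, used by 8 circles with 57.9% of reads, and at 31181149, used by 7 circles with 36.7%. The 2 leading circles are circRNA.32337 (chr6:31139729-31197851) and circRNA.32336 (chr6:31139729-31181149).

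Lncpint had 1047 and 1436 reads under IL-1β against 1617 and 1368 in control, or 1312 ± 220 and 1275 ± 129 CPM (SD, n = 2 each). The groups overlapped, with a log2 change of 0.04 ± 0.21 in edgeR. CircRNA.32337 had 494 and 782 reads under IL-1β against 855 and 456 in control. Its highest and lowest counts were thus both in control libraries, where it made up 52.9% and 33.3% of Lncpint reads. CircRNA.32336 had 310 and 314 reads under IL-1β against 345 and 369 in control. Scaled to CPM it was higher in both IL-1β libraries, at 341 and 322 against 295 and 302, with a log2 change of 0.15 ± 0.25. CircRNA.32331 was lower with IL-1β, at 23 and 54 reads against 82 and 148, a log2 change of -1.24 ± 0.57 that did not pass the edgeR test (adjusted p = 0.886). Leaving out 1 library gave values from -1.94, without the second IL-1β library, to -0.80, without the second control library. CircRNA.32349 had no reads under IL-1β against 8 and 25 in control. Of 12 Lncpint circles tested, 5 were higher and 7 lower.

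A further short circle, circRNA.32343 (chr6:31142086-31142639), lies in both Lncpint and Gm13835, a pseudogene within it, and was counted as its own host. It had 245 and 267 reads under IL-1β against 241 and 317 in control. Its log2 change as a host was 0.19 ± 0.28, and the groups overlapped. Scaled with the factors of the circRNA table, the same circle had 269 and 274 CPM under IL-1β against 206 and 259 in control, without overlap, and a log2 change of 0.22 ± 0.28. With this circle added, Lncpint had 1292, 1703, 1858 and 1685 reads in IL-1β libraries 1 and 2 and control libraries 1 and 2.

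Circular output of Mir100hg, the third host by reads, was lower in both IL-1β libraries. It is the host gene of miR-100, let-7a-2 and miR-125b-1 (chr9:41376526-41615185, + strand), miRNAs linked to cell differentiation. Its 36 circles used 16 acceptors and 11 donors. The donor at 41528200 served 15 circles with 79.8% of reads and the acceptor at 41475006 served 5 circles with 59.1%. The main acceptor lies 113 nt after the second annotated start site of the gene and 98480 nt after the first.

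Mir100hg circles had 584 and 709 reads under IL-1β against 1060 and 1281 in control, which is 685 ± 56.5 and 1002 ± 150 CPM (SD, n = 2 each). Both IL-1β libraries lay below both controls, and the control level was 1.46-fold higher. The log2 change of -0.55 ± 0.22 had an unadjusted p of 0.0334 and an adjusted p of 0.887 in edgeR, and so did not pass. CircRNA.39284 (chr9:41475006-41528200) had 364 and 371 reads under IL-1β against 602 and 751 in control. It was lower in both IL-1β libraries, with a log2 change of -0.53 ± 0.24 (edgeR, unadjusted p = 0.0642). CircRNA.39264 had no reads under IL-1β against 27 and 7 in control. Of 15 Mir100hg circles tested, 5 were higher and 10 lower, with a median log2 change of -0.51.

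Most Mir100hg circles stopped short of its miRNAs. The main donor lies 3225 nt before the Mir100 hairpin, and 31 circles with 3577 reads ended before it. Only 1 circle, with 10 reads, spanned Mir100. The other 4 circles (circRNA.39275, circRNA.39285, circRNA.39289 and circRNA.39291) ended inside the hairpin, at the donor 41531488 shown above, which is base 18 of the 22 bases of miR-100-3p. Their summed reads were 0 and 4 under IL-1β against 9 and 34 in control, 1.29% of the gene's reads. These circles were most read in the second control library, and 4 different acceptors were joined to this donor.

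In 8 other hosts with a hairpin on the strand of their circles, 5 of 24 circles spanned a hairpin, with 71 of 1064 reads. Of these 5, A230057D06Rik gave 3, with 61 of its 402 reads. A330023F24Rik (chr1:195017399-195037908, + strand) holds Mir29b-2 and Mir29c, members of the miR-29 family, which targets collagen messenger RNAs. Its main circle ends 12634 nt before Mir29b-2 and 13141 nt before Mir29c. The 2 mature forms, in chr1:195037091-195037113 and chr1:195037600-195037621, share the seed in capitals, bases 2 to 8.
mmu-miR-29b-3p: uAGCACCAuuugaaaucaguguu
mmu-miR-29c-3p: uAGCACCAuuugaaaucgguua

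A330023F24Rik circles had 95 and 104 reads under IL-1β against 179 and 153 in control. Both IL-1β libraries were below both controls, with a log2 change of -0.42 ± 0.36 that did not pass (edgeR, adjusted p = 0.991). One of its 8 circles, circRNA.19112, had no reads under IL-1β against 20 and 40 in control (edgeR, unadjusted p = 0.0270, adjusted p = 0.886). A fold against a group at 0 is not given, because the deposited table lists almost no value under 2 reads. A230057D06Rik (chr7:61705850-61927574), which holds hairpins of the Mir344 family, had 74 and 75 reads under IL-1β against 116 and 137 in control, again without overlap.

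Of the 31 pseudogene hosts, 9 reached 20 reads, and Gm9762 and Zfa-ps held 3279 and 1294 of the 5092 reads of the class. Gm9762 (chr3:78965482-78967202) had 1 circle, circRNA.25047 (chr3:78966402-78966775), with the most reads of any member. It had 799 and 925 reads under IL-1β against 873 and 682 in control, or 914 ± 44.7 and 664 ± 104 CPM as a host (SD, n = 2 each). The 2 IL-1β libraries were above both controls after scaling, with a log2 change of 0.46 ± 0.22 (edgeR, unadjusted p = 0.0643, adjusted p = 0.887). Of the 9 pseudogene hosts tested, 8 were higher and 1 lower with IL-1β, while 48.0% of all hosts tested were higher. The median log2 change was 0.64 against -0.03 over all hosts tested. That median is the value of Gm32587/Gm4939, 0.64 ± 2.02 (SE), with 7 and 26 reads under IL-1β against 26 and 0 in control. Hspd1-ps3, Gm6020, Zfp862-ps and Gm15163, also among the 8, likewise had 0 reads in 1 control library. Zfa-ps and Atp10d changed sign on leaving out a library. None of the 9 passed the edgeR test, and none had an unadjusted p under 0.05.

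Zfa-ps (chr10:52542320-52545739) is a pseudogene related to Zfx, an X-linked zinc finger transcription factor. Its circRNA.1103 (chr10:52544607-52545267) had 346 and 258 reads under IL-1β against 336 and 354 in control. The groups overlapped, with a log2 change of 0.13 ± 0.28 for the host. Zfx itself had 6 circles with 3455 and 3221 reads under IL-1β against 3681 and 5146 in control. The shortest Zfx circle, with 59 reads in all, spanned 570 bases against 661 for Zfa-ps. The most read, with 10783 reads, spanned 15981 bases. These are spans on the genome, which can include introns, so they do not compare the lengths of the spliced circles. Hspd1-ps3, a copy of the gene for the mitochondrial chaperonin Hsp60, had circRNA.3362 with 30 and 21 reads under IL-1β but 0 in either control (edgeR, unadjusted p = 0.0186, adjusted p = 0.886). A second circle of Hspd1-ps3 had 14 reads in the second control library alone. Atp10d, annotated here as a transcribed pseudogene, had 32 and 21 reads under IL-1β against 11 and 43 in control. How reads that match several copies were placed is not given in the sources used here, so pseudogene values are uncertain between copies.

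Circles of Malat1 and Neat1 were nearly all read in 1 library each. Both are abundant nuclear lncRNAs, Malat1 of nuclear speckles and Neat1 the scaffold of paraspeckles. Malat1 had 14 circles with 115 reads, each read in 1 library, and 12 spanned under 1 kb. Neat1 had 20 circles with 180 reads, of which 19 were read in 1 library. The exception, circRNA.17320, had 15 and 12 reads under IL-1β against 11 and 3 in control. Among coding circRNAs of the same depth as those of Malat1, 2 to 22 reads, 86.3% of 25529 were read in 1 library. Neat1 circles had 2 to 41 reads. Of coding circRNAs, 97.4% with 1 to 9 reads, 73.7% with 10 to 19 and 16.9% with 20 to 49 were read in 1 library. Of the more deeply read hosts, 11 Pvt1, 6 Lncpint and 8 Mir100hg circles were read in all 4.

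**Figure D3:**
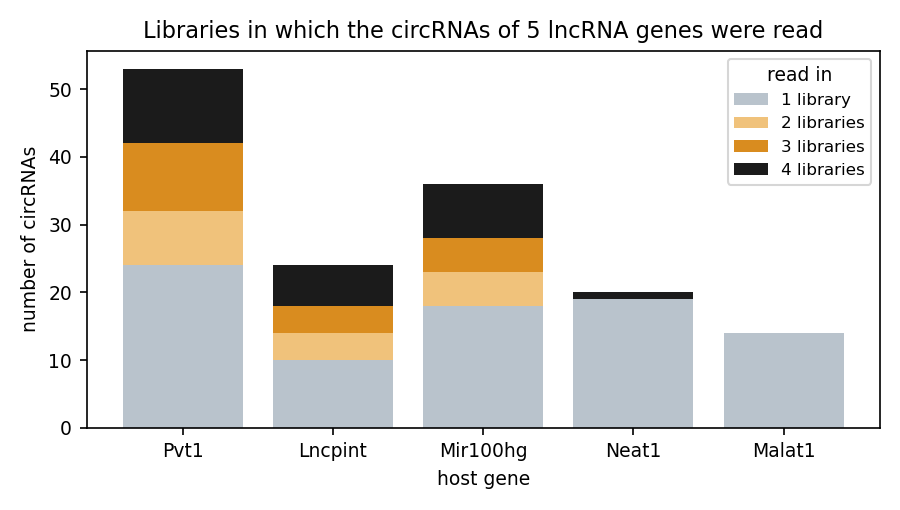
Number of circRNAs of 5 lncRNA genes, stacked by the number of libraries in which each was read. All 14 of Malat1 and 19 of 20 of Neat1 were read in 1 library, while Pvt1, Lncpint and Mir100hg had 11, 6 and 8 in all 4.

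Summed over circles, Malat1 had 22 and 7 reads under IL-1β against 18 and 68 in control. Neat1 had 45 and 32 under IL-1β against 43 and 60 in control. The groups overlapped for both, and neither host passed the edgeR test (log2 change -1.23 ± 1.10 and -0.10 ± 0.66). Ftx and Firre, X-linked lncRNAs, the first of the X-inactivation centre, had few reads. Ftx had 7 and 33 under IL-1β against 2 and 10 in control, and Firre had 10 and 3 under IL-1β against 15 and 5 in control. Gas5, a host of small nucleolar RNAs, had 17 reads in the second IL-1β library, 30 in the second control library and 0 in the other two.

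The groups overlapped in 3 further studied lncRNAs. Crnde (chr8:92326031-92356120, - strand), named for its expression in colorectal tumours, had 113 and 207 reads under IL-1β against 174 and 302 in control. Its main circle, circRNA.38072 (chr8:92344853-92350754), had 76 and 162 reads under IL-1β against 127 and 216 in control. In both groups the second library was the higher, and the log2 change of Crnde was -0.28 ± 0.40. Ptgs2os, a transcript antisense to and upstream of the prostaglandin synthase gene Ptgs2, had 8 and 7 reads under IL-1β against 8 and 24 in control. Morrbid, known from the survival of myeloid cells, had 15 and 7 under IL-1β against 15 and 8 in control.

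Among predicted genes, the overlapping pair Gm13483/Gm48908 gave 2 main circles whose balance was not alike in the groups. It had 6 circles on chromosome 2, of which 5, with 98.7% of reads, used the acceptor at 50355025, the lowest annotated coordinate of Gm48908. CircRNA.23258 (chr2:50355025-50406520) had 78 and 48 reads under IL-1β against 143 and 198 in control. It was lower in both IL-1β libraries, with a log2 change of -1.08 ± 0.42 (edgeR, unadjusted p = 0.0423, adjusted p = 0.886). CircRNA.23255 (chr2:50355025-50370969), from the same acceptor, had 89 and 52 reads under IL-1β against 67 and 44 in control. The groups overlapped for this shorter circle, with a log2 change of 0.69 ± 0.54. CircRNA.23258 thus made up 46.7% and 44.9% of the pair's reads under IL-1β, against 64.1% and 78.6% in control. The difference in balance was seen after the values were known and was not tested. The sum of the pair was 167 and 107 reads under IL-1β against 223 and 252 in control, a log2 change of -0.47 ± 0.36.

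Gm32364 (chr10:67569688-67596601, + strand), whose acceptors are printed above, had 9 circles with 107 and 97 reads under IL-1β against 123 and 171 in control. Scaled to CPM, the groups overlapped, at 118 and 99.2 under IL-1β against 104 and 148 in control. The leading circle of Gm32364, circRNA.1391, made up 49.5% and 47.4% of the gene's reads under IL-1β, against 73.2% and 67.3% in control. This difference in balance, too, was seen after the values were known and was not tested. CircRNA.1396, at the second acceptor of the window, had 11 reads in the second IL-1β library and 14 in the second control library, and circRNA.1395 had 8 reads in the second IL-1β library alone. CircRNA.1400 had 24 reads in the second IL-1β library and none in the others. The circle of 4933439C10Rik whose acceptor is shown, circRNA.3795, had 23 and 66 reads under IL-1β against 41 and 21 in control.

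Some circles lay on the strand opposite to the annotated gene. This was so for 10 members with 701 reads, while 268 lay on the gene's strand. For 155, with 11031 reads or 39.6% of member reads, the gene's strand was not known. Pvt1, Gm9762, Zfa-ps and Neat1 are among the hosts of these 155 circles. Gm32681 (chr9:51046418-51069231, + strand) accounted for 642 of the 701 reads through circRNA.39463 (chr9:51053396-51063272), labelled to the - strand. It had 115 and 198 reads under IL-1β against 143 and 186 in control, and the groups overlapped. Rpph1, whose circle had no AG before its end, had 0 and 76 reads under IL-1β against 63 and 123 in control. Its circRNA.9049 (chr14:50807447-50807694) has its lower end at the lowest annotated coordinate of this short gene, which is not known to be spliced.

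Over the whole class, no circRNA or host passed the test between IL-1β and control. Of the 433 circRNAs, 122 had at least 20 reads and were tested. In edgeR, 0 of 122 had an adjusted p under 0.05, against 0.0196% of all circRNAs tested, and 4 had an unadjusted p under 0.05, against 3.44%. DESeq2 called 0 after adjustment, against 0.691%, and 10 before it, against 8.99%. The groups did not overlap for 18 circRNAs that were higher (background 16.4%) and 23 that were lower (17.2%). The 4 with the lowest edgeR p were circRNA.3362, circRNA.10328, circRNA.19112 and circRNA.23258, described above. A further one, circRNA.35083 of Gm36464, had 18 and 16 reads under IL-1β but 0 in either control. Of the 122, 16 had 0 reads in both libraries of 1 group, against 15.8% of all circRNAs tested. The median log2 change of the 122 was -0.01, beside -0.05 over all circRNAs tested. With 2 libraries a group, a lack of calls does not show that levels were alike.

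Of the 185 hosts, 68 had at least 20 reads. In edgeR, 0 of 68 passed after adjustment, where 0.0% of all hosts did, and 2 (Mir100hg and Pvt1) had an unadjusted p under 0.05, against 4.52%. DESeq2 called 0 after adjustment, against 1.1%, and 5 before it, against 10.7%. Hosts whose groups did not overlap numbered 8 higher (background 17.1%) and 10 lower (18.8%). Of the 68, 8 had 0 reads in both libraries of 1 group, against 5.72%. Reads in all 4 libraries were found for 29 of the 68, against 70.9% of all hosts tested. Hosts were not matched for depth in this comparison. Over all hosts, tested or not, the median was 1 circle for noncoding hosts against 3 for coding ones. The median log2 change was -0.18 beside -0.03, and its sign was not stable: it was 0.094 without the first control library, 0.038 for hosts with at least 50 reads and -0.44 without the second IL-1β library. Of 8 hosts tested in the studied lncRNA class, 4 were higher and 4 lower. Lncpint and its circle shared with Gm13835 count there as separate hosts, both higher. Of 29 predicted genes 11 were higher and 18 lower, and of 14 RIKEN clone genes 5 and 9.

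**Figure D4:**
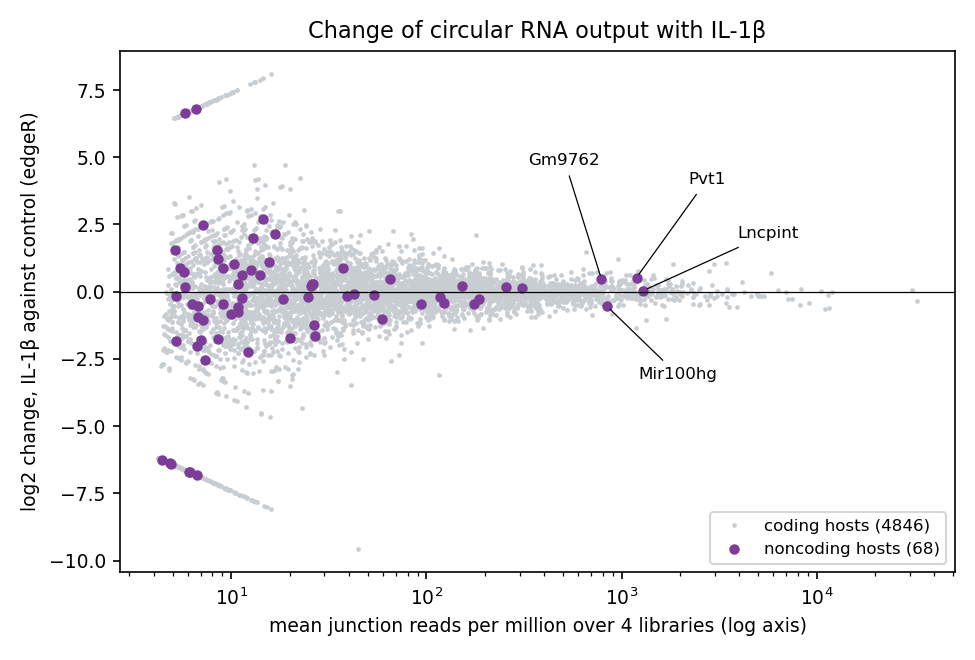
Log2 change of circular output (IL-1β against control, edgeR) against the mean CPM on a log axis, for 68 noncoding hosts (purple) and the coding hosts (grey). Mir100hg lies at -0.55 and Pvt1 at 0.52; the slanted lines at the outer edges are hosts with 0 reads in 1 group, whose fitted change depends on the prior count.

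Hosts with the lowest p after Mir100hg, Pvt1 and Gm9762 had few reads. Gm35319 had 9 and 16 reads under IL-1β but 0 in either control. Gm36464 had 18 and 30 under IL-1β against 9 and 0 in control. The reverse was seen for Gm10125, with none under IL-1β but 13 and 18 in control, for BC006965, with 10 and 13 in control, and for Gm11734, with 27 and 2. Platr25 was read in the first IL-1β library alone (21 reads), 9130020K20Rik in the first control library alone (23 reads) and Gm38424 in the second control library alone (28 reads). Each of these rested on 57 reads or fewer.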

How the data were processed

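The 4 libraries were RNase R-treated, strand-specific total RNA, per the labels' protocols. The submitters' processing notes name Bowtie2 and mm10. Neither the circRNA caller nor its filters, nor how duplicate or multiply matching reads were handled, is stated (not given in the sources used here). Per the file headers, the values the authors deposited are raw counts of junction reads for each circRNA in each library. They also deposited SRPBM, a depth-scaled signal, used here only as an alternative scaling. Each library's own table repeats the values of the joint table.

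Loci, taken as 1-based, were placed in RefSeq genes (GRCm38.p6). Counts were compared over the whole table with the quasi-likelihood test of edgeR 4.0.16 (R 4.3.3, TMM factors, groups only), leaving out circRNAs and hosts under 20 reads, and p-values were adjusted by Benjamini-Hochberg with a threshold of 0.05. The log2 change over the root of its F statistic gave the standard error. DESeq2 1.42.0, other scalings, filters and member rules, and leaving out each library were alternatives. The tests were checked on simulated counts, where edgeR missed nearly all changed circRNAs and most changed hosts at the fold sizes tried. Python 3.11.15 with scipy 1.17.1 gave the other values.

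Named were the 10 hosts and 10 circRNAs with the most reads, the 6 of each with the lowest p in each direction, the 4 pseudogenes with the most reads and listed lncRNAs with at least 20 reads. Other names were chosen after their values were seen. The members and lists were chosen with earlier results of these data known. Exon positions were not used here, so exon or intron is not stated.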

Additional observations from a re-analysis of the deposited data

How the results depend on the processing

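Over 46 named results and 719 values under alternatives, 689 kept their direction and side of the threshold and 0 passed it. The counts of members called stayed at 0 for circRNAs and hosts under every alternative run, including DESeq2 (smallest adjusted p 0.0666 and 0.137). Another 30 values, of 17 results, changed sign, 23 of them on leaving out a library. Scaling by the authors' SRPBM moved the median log2 change of all circRNAs from -0.05 to -0.28 and of all hosts from -0.03 to -0.24. Under it Lncpint was at -0.19, Zfa-ps at -0.065, circRNA.32337 at -0.015, circRNA.32336 at -0.078, circRNA.1103 at -0.065 and circRNA.10357 at -0.045. The separation of the groups for Pvt1 and Gm9762 also depended on the scaling. By SRPBM depth, the first control library lay above the first IL-1β library for Pvt1 and above both IL-1β libraries for Gm9762. Without circles opposite to their gene, Firre was at 0.15.

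Leaving out each library in turn gave log2 changes from -0.14 to 0.20 for Lncpint, -0.16 to 0.37 for Zfa-ps, -0.71 to 0.21 for Crnde, -0.15 to 0.52 for Gm32681, -0.43 to 0.20 for Neat1 and -2.35 to 0.073 for Malat1. The ranges were -6.83 to 0.42 for Gas5, -1.32 to 0.26 for Ptgs2os, -0.45 to 0.81 for Morrbid, -1.44 to 0.37 for Firre and -0.35 to 1.62 for Atp10d. For circRNAs they were -0.12 to 0.82 for circRNA.32337, -0.15 to 0.38 for circRNA.1103, -0.14 to 0.54 for circRNA.39463, -0.80 to 0.20 for circRNA.38072 and -0.36 to 0.78 for circRNA.10357. Without a change of sign, circRNA.32331 ranged from -1.94 to -0.80 and circRNA.10323 from 0.53 to 1.59, and for hosts Ftx from 1.28 to 3.53, Hspd1-ps3 from 1.21 to 7.82 and Gm36464 from 1.73 to 7.70. The median over member hosts ranged from -0.44 to 0.094. A group left with 1 library is assumed to vary like the other group. The difference in the members' read share was -0.00327 points without the second IL-1β library. Counting only circles with at least 5 reads in a library lowered the mean number of members per library from 176 to 148; the minimum itself removes circles.

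The labels do not say whether libraries with the same replicate number belong together. Their deviations were nearly uncorrelated (from -0.03 to 0.03), which cannot show whether the libraries were paired. With the replicate number as a block in edgeR, 0 member circRNAs and 0 member hosts were called (smallest adjusted p 0.344 and 0.376). Over the whole table the block raised the calls from 3 to 61 circRNAs and from 0 to 20 hosts. With 2 libraries a group, the absence of calls sets no limit on the size of a change. Values under 2 reads are almost absent from the table, so a 0 does not show absence.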
